A study of Mus musculus with 6 samples.

Results

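The genes described here are 35 immediate early and dissociation response genes, taken by symbol from a list of known responders, a choice made with earlier results of these data known. All 35 were found, once each, among the 32285 genes counted in the series. They were followed in 6 libraries of single cells from the tibialis anterior muscle of wildtype mice, 1 library per group. The groups were day 3 after a cardiotoxin injection, day 1 after it, and uninjured muscle (day 0), each taken at ZT16 and at ZT4, hours on the scale of the animals' light cycle. Cardiotoxin is a venom toxin that destroys muscle fibres and sets off their regeneration. Muscles of both hindlimbs were dissociated, and live mononucleated cells were sorted as those that excluded propidium iodide and loaded on a 10x droplet controller. The labels name no sham injection, and the sources used here do not say how many mice a library holds. Since each group was 1 library, no difference has a replicate check and no p-value is given. Every library went through dissociation and sorting, and so RNA made in the muscle and RNA made during handling cannot be told apart.

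Immediate early genes are switched on within minutes of a stimulus by factors that already wait in the cell, without new protein synthesis. Growth factors, cytokines, mechanical strain and heat all reach them, mostly through MAP kinases acting on serum response factor and on the cAMP response element binding protein. Many encode transcription factors, among them the FOS and JUN proteins that pair to form AP-1. Others encode brakes, such as phosphatases that silence MAP kinases and proteins that destroy short-lived mRNAs. In muscle they are well known from stem cells, which switch on Fos and its partners while a muscle is being taken apart into single cells.

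The stretches of DNA just before the starts of these genes are shown because binding sites for those inputs often lie there, and because the genes went different ways after injury. RefSeq (GRCm38.p6) gave windows of 200 bases before the start for 30 of the 35 genes. The motifs searched on both strands were the full cAMP response element TGACGTCA, its first part TGACGT, the serum response factor site known as the CArG box, the AP-1 site TGANTCA and the TATA box TATAAA. Every full cAMP response element also counts as a match of TGACGT. Fos (chr12:85473690-85473889, plus strand) is shown with TGACGT and TATAAA in capitals, 66 and 33 bases before its start. Btg2 (chr1:134079156-134079355, minus strand) and Dusp1 (chr17:26508473-26508672, minus strand) have the full cAMP response element in capitals, 166 and 143 bases before. Zfp36 (chr7:28379229-28379428, minus strand) has a CArG box in capitals, 58 bases before its start. Dusp5 (chr19:53528945-53529144, plus strand) has a pair of CArG boxes end to end in capitals, 82 and 72 bases before. All sequences run 5′ to 3′ on the strand of the gene, and matches of TGACGT alone in the Dusp1 and Dusp5 windows are left in lower case.
Fos: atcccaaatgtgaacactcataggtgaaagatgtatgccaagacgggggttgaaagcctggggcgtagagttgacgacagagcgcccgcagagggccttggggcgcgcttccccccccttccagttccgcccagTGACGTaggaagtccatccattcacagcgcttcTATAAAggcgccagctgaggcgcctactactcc
Btg2: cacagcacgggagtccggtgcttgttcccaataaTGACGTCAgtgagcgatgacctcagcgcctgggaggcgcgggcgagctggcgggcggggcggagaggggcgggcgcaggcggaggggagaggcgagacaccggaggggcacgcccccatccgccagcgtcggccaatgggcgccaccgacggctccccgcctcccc
Dusp1: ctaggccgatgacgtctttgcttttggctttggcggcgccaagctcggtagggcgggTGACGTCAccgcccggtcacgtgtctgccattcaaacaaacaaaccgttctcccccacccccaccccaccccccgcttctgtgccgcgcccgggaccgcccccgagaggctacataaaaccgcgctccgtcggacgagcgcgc
Zfp36: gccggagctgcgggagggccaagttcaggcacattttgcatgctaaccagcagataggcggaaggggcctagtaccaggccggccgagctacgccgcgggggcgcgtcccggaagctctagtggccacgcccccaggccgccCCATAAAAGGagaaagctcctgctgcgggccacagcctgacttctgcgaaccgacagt
Dusp5: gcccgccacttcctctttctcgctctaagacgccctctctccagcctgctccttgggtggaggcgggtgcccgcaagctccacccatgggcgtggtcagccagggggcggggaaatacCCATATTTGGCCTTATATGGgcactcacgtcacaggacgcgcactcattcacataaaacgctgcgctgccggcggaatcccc
In the GENCODE vM21 gene models on GRCm38, Fos starts right after its window, at position 85473890 of chromosome 12. Btg2, on the minus strand, starts past the end of its window, at 134079120 of chromosome 1. The Dusp1 and Zfp36 windows lie inside the longer GENCODE models (26505590 to 26562128 of chromosome 17 and 28376784 to 28380253 of chromosome 7), and Dusp5 starts inside its window, at 53529109 of chromosome 19. The full cAMP response element was found for 3 of the 30 genes (Btg2, Dusp1 and Maff) and in 1.47% of 32851 windows of the same length over all genes. The CArG box was found for 3 (Dusp5, Egr2 and Zfp36) and in 1.18% of windows, AP-1 for 2 (Csrnp1 and Zfp36l1) and in 5.48%, and TATAAA for 7 and in 9.96%. TGACGT was found for 9 of the 30 genes and in 5.85% of windows. The 30 genes had 44 windows, so counts of genes and shares of windows are unlike measures. Counted by window, the full cAMP response element was in 3 of the 44 and the CArG box in 6. AP-1 was in 2 of them, TATAAA in 8 and TGACGT in 11. These are matches of letters only and were not tested as sites.

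The 6 libraries held 68724 barcodes, of which 58469 were kept, between 7638 and 11168 per library. Total UMIs per library were between 72747703 and 132221721. Any pair of libraries shared between 21 and 65 cell barcodes. Cells were grouped without the 35 genes, into 48 clusters, and 37 clusters were given to 13 classes by fixed markers. The other 3502 cells stayed without a name. Mast-like cells reached 50 cells in no library, which leaves 12 classes. Levels are UMIs of a gene over all UMIs of the class in the library, as CPM, and limits in square brackets are 95% limits that cover counting error only. Estimated free RNA was between 0 and 3.37% of a class's UMIs. The summed markers of mature muscle, which define another class, stood between 2736 and 13291 CPM in the other classes on day 0, between 25.8 and 898 CPM on day 1, and between 77.0 and 2048 CPM on day 3. With the estimated free RNA subtracted, 203 of 203 named differences between libraries kept their sign and stayed past 1.5-fold. Amounts this small could move few such differences, so the result does not bear on foreign RNA that the estimate missed. In mural-like cells of day 1 at ZT4 the estimate was 0, though neutrophil markers stood at 4061 CPM there. The NK-like cluster had UMIs of the T cell gene Cd3e in between 30% and 60.5% of its cells and is read as a mixture of T and NK cells. The mixture moved with day: the share of its cells with a UMI of the NK gene Ncr1 was 5.77%, 13.2% and 34.6% on days 0, 1 and 3 at ZT16 and 13.7%, 23.8% and 52.3% at ZT4, and the summed NK markers were 1074, 2573 and 7709.9 CPM at ZT16 and 3024, 4548 and 8964 CPM at ZT4.

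In uninjured muscle the myogenic-like cells, which include the muscle stem cells, carried more of these genes' UMIs than any other class, and the mature muscle-like cells the least. Summed over the 35 genes, the level was 47381 and 49990.4 CPM in myogenic-like cells (ZT16 and ZT4) and 37288 and 36531 CPM in monocyte-macrophage-like cells. Endothelial-like, mural-like and fibro-adipogenic-like cells followed, with sums between 24547 and 32171 CPM, 29224 and 30335 CPM, and 25235 and 27062 CPM. The order of endothelial-like, mural-like and fibro-adipogenic-like cells was not the same at the 2 collection times. Dendritic-like, glial-like, NK-like, tenocyte-like and B cell-like cells lay between 12554 and 23481 CPM. Mature muscle-like cells, which carry fibre RNA such as Acta1 and Ckm, had 1266 and 903 CPM. Fos, Junb, Jun and Jund supplied 13.7%, 12.6%, 6.55% and 6.47% of all UMIs of the 35 genes, and so weigh most in these sums.

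After injury the order turned over. Myogenic-like cells fell to 3957 CPM on day 1 at ZT16, against 47381 CPM on day 0, a log2 difference of -3.58 [-3.62 to -3.54]. Of the 110 cells of day 1 at ZT16, 72 lay in a cluster led by sarcomere genes, and without that cluster too few cells are left for a day 1 value. Day 1 at ZT4 held 49 myogenic-like cells, under the minimum of 50 set for a class. On day 3 the sums were 2871 CPM at ZT16 and 2647 CPM at ZT4, 16.5 and 18.9 times lower than on day 0. The larger of the myogenic-like clusters of day 3, cluster 19, by itself had sums of 2825 CPM at ZT16 and 2558 CPM at ZT4. Neutrophil-like cells, which reached 50 cells on days 1 and 3, had the highest sums of any class then, 26039.8 and 24457 CPM on day 3 and 35930.3 and 29779 CPM on day 1 (ZT16 and ZT4). Mural-like cells kept sums between 20629 and 21089.8 CPM on day 3 and between 20009.9 and 23926 CPM on day 1. The means over libraries with equal weight were 29052 CPM in neutrophil-like cells (4 libraries), 24202 CPM in mural-like cells (6 libraries) and 909 CPM in mature muscle-like cells (4 libraries). By gene, myogenic-like cells led 12 and 13 of the 35 genes on day 0 (ZT16 and ZT4) and monocyte-macrophage-like cells 7 and 7. On day 1 neutrophil-like cells led 22 and 22 and mural-like cells 6 and 6, and on day 3 neutrophil-like cells led 19 and 16. How many of all genes each class led is not given here, so these counts do not set the 35 genes apart from others.

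**Figure D1:**
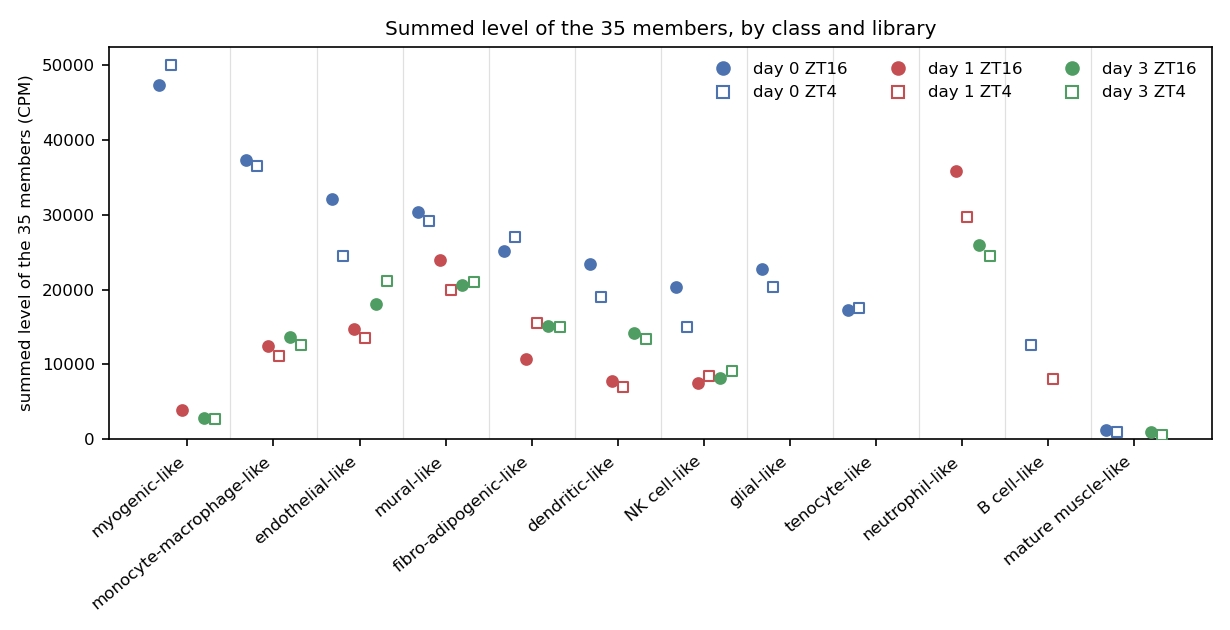
Summed level of the 35 genes (CPM) by cell class, with filled circles for ZT16 and open squares for ZT4 and one colour per day. Myogenic-like cells are the highest class on day 0 and lie at or under 3957 CPM on the injured days, whereas neutrophil-like cells lie at or above 24457 CPM in each of their 4 libraries.

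Counted in single cells, the same genes were broadly detected. Each cell was thinned to 1000 UMIs so that deep and shallow cells could be compared, and shallower cells were left out. On day 0 a myogenic-like cell had a median of 12 of the 35 genes at ZT16 and 12 at ZT4, and Fos had a UMI in 95.6% and 95.8% of these cells. Mature muscle-like cells, thinned to the same depth, had Fos in 4.18% and 4.10%, a class in which Fos was near 0. On day 1 at ZT16 the myogenic-like median was 1 gene, Fos had a UMI in 21.2% of cells, and 34.6% of cells had none of the 35 genes. On day 3 the median was 2 genes at both collection times, with Fos in 28.4% and 25.4% of cells. Without thinning the medians were 20 and 19 genes on day 3, when these cells held far more UMIs each, and 21 and 19 on day 0. The fall was thus seen in the median cell and not only in the sum. Monocyte-macrophage-like cells had medians of 14, 8 and 8 genes on days 0, 1 and 3 at ZT16 and of 14, 7 and 8 at ZT4. Neutrophil-like cells had medians of 11 and 11 genes on day 3 and of 13 and 12 on day 1. In dendritic-like cells the medians were 11, 5 and 9 genes over the days at ZT16 and 10, 5 and 8 at ZT4. In mural-like cells they were 10, 10 and 10 at ZT16 and 10, 9 and 8 at ZT4.

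**Figure D2:**
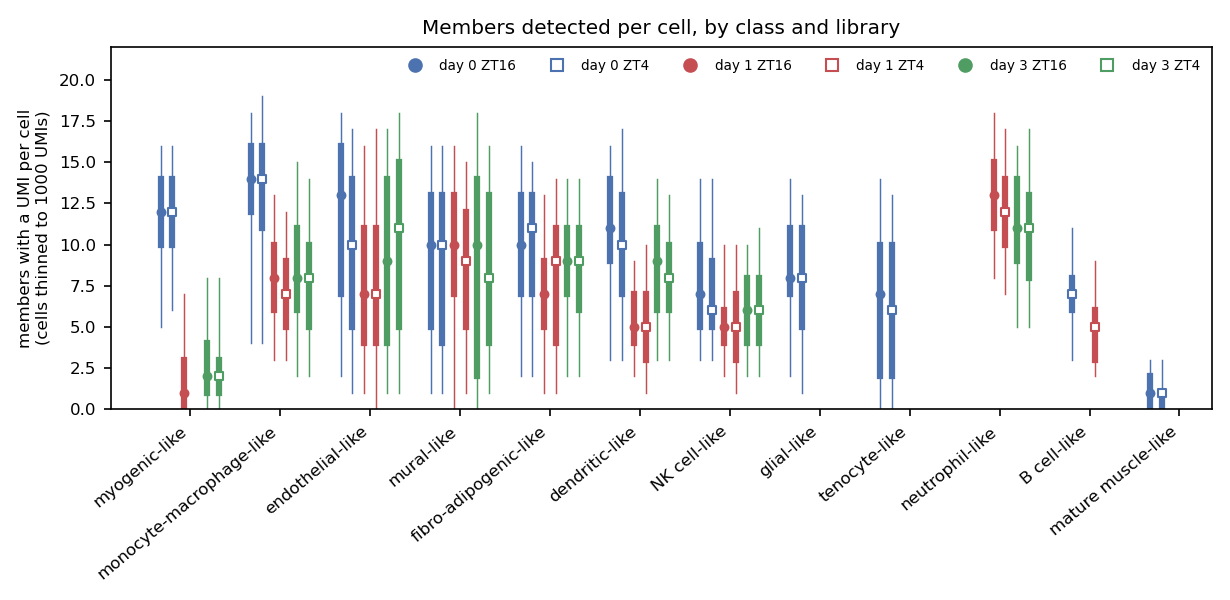
Number of the 35 genes with a UMI per cell after thinning to 1000 UMIs, by class and library, where the point is the median, the thick bar the quartiles and the thin line the 5th to 95th percentile. The myogenic-like cells drop to medians of 1 and 2 genes after injury, and the mural-like and neutrophil-like cells keep medians of 8 or more.

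A gene was counted as higher or lower in a class when its level differed at least 1.5-fold and it had at least 30 UMIs in the 2 libraries together; the words rose and fell are used of such values. At ZT16 between 25 and 35 of the 35 genes had that many UMIs in each of the 7 classes present on both days 0 and 1. On day 1 against day 0, 42 of 231 pairs of a gene and a class were higher and 146 lower at ZT16, where all genes together gave 19.8% higher and 34.1% lower. At ZT4, 42 of 222 pairs were higher and 120 lower, beside 20.2% and 29.1% over all genes. On day 3 against day 0, 39 of 259 pairs were higher and 138 lower at ZT16, beside 19.9% and 25.1%, and 36 of 257 were higher and 121 lower at ZT4, beside 18.6% and 26.2%. The shares of higher pairs were thus near those of all genes, and the shares of lower pairs were above them. The comparisons of days 1 and 3 with day 0 share the day 0 library, and so they are not independent of each other.

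The fall was deepest in myogenic-like cells. On day 1 against day 0 at ZT16, 29 of 35 genes were lower and 5 higher in them, with a median log2 difference of -2.46, against -0.12 for all genes, of which 36% were lower and 29.2% higher. On day 3 the counts were 29 lower and 5 higher at ZT16 (medians -3.18 and, for all genes, -0.00, with 31.5% lower and 31.1% higher) and 28 lower and 3 higher at ZT4 (medians -3.61 and -0.14, with 36.4% lower and 28.7% higher). Monocyte-macrophage-like cells had 23 of 35 genes lower on day 1 at ZT16 and 23 at ZT4, where 43% and 42% of all genes were lower. Dendritic-like cells had 26 of 34 lower at ZT16 and 23 of 34 at ZT4 (all genes 28.3% and 23.3%). On day 1 at ZT16 mural-like cells stood at the other end, with 10 genes higher and 9 lower of 33 and a median of -0.14, beside 14.8% and 24.6% over all genes. At ZT4 they had 11 higher and 12 lower of 32 (all genes 19.0% and 26.7%). Their median there, -0.21, was near the -0.22 of fibro-adipogenic-like cells. On day 3 mural-like medians were -0.26 at ZT16 and -0.32 at ZT4, below the -0.02 and -0.20 of fibro-adipogenic-like cells. They had 4 higher and 11 lower of 33 (17.3% and 18.8% of all genes) and 7 higher and 12 lower of 31 (16.2% and 19.8%).

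On day 1 at ZT16 the other classes lay in between. Fibro-adipogenic-like cells then had 19 genes lower and 9 higher of 34 (all genes 45.2% and 21.1%). Endothelial-like cells had 21 lower and 6 higher of 35 (27.4% and 18.2%), and NK-like cells 19 lower and 2 higher of 25 (13.5% and 17.4%). B cell-like cells could be compared at ZT4 only, with 15 lower and 1 higher of 23 (19% and 15.2%). By day 3 endothelial-like cells differed between collection times. Against day 0 they had 17 genes lower and 5 higher at ZT16 (18.6% and 16.3% of all genes), but 2 lower and 6 higher at ZT4 (17.8% and 11%). The difference between those 2 results was not tested. Monocyte-macrophage-like cells had 23 genes lower on day 3 at ZT16 and 23 at ZT4 (36% and 36.6% of all genes), and dendritic-like cells 19 and 16 (21.2% and 25.7%).

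Because CPM is a share of a cell's RNA, a level can fall when the rest of the RNA grows. Myogenic-like cells held 7205, 13967 and 33069 UMIs per cell on days 0, 1 and 3 at ZT16, of which the 35 genes gave 341, 55.3 and 94.9. At ZT4 the 35 genes gave 92.8 UMIs per cell on day 3 and 295 on day 0. Their fall in myogenic-like cells was therefore also a fall in UMIs per cell, though a smaller one than in CPM. Monocyte-macrophage-like cells had 293, 174 and 161 UMIs of the 35 genes per cell on days 0, 1 and 3 at ZT16 and 255, 116 and 149 at ZT4, and dendritic-like cells 320.4, 104 and 164 at ZT16. Fibro-adipogenic-like cells differed. They gave 271, 294 and 363 UMIs of the 35 genes per cell at ZT16 and 258, 322 and 341 at ZT4, while their total grew to 24032 UMIs per cell on day 3 at ZT16, against 10733 on day 0. Their lower CPM on the injured days was thus not a lower count per cell. Nor was that of mural-like cells on day 1, with 122, 156 and 116 over the days at ZT16 and 110, 118 and 95.6 at ZT4. Endothelial-like cells had 97.5, 72.5 and 73.4 at ZT16 but 68.2, 65.1 and 79.6 at ZT4. Neutrophil-like cells, highest by CPM on the injured days, held few UMIs each, between 2298 and 2502 in their libraries. The 35 genes gave 89.9 and 70.8 UMIs per cell in them on day 1 and 60.2 and 56.2 on day 3 (ZT16 and ZT4). On day 3 this was above NK-like and mature muscle-like cells only, and below the 94.9 and 92.8 of myogenic-like cells. UMIs per cell also depend on sequencing depth, which was not equal between libraries.

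**Figure D3:**
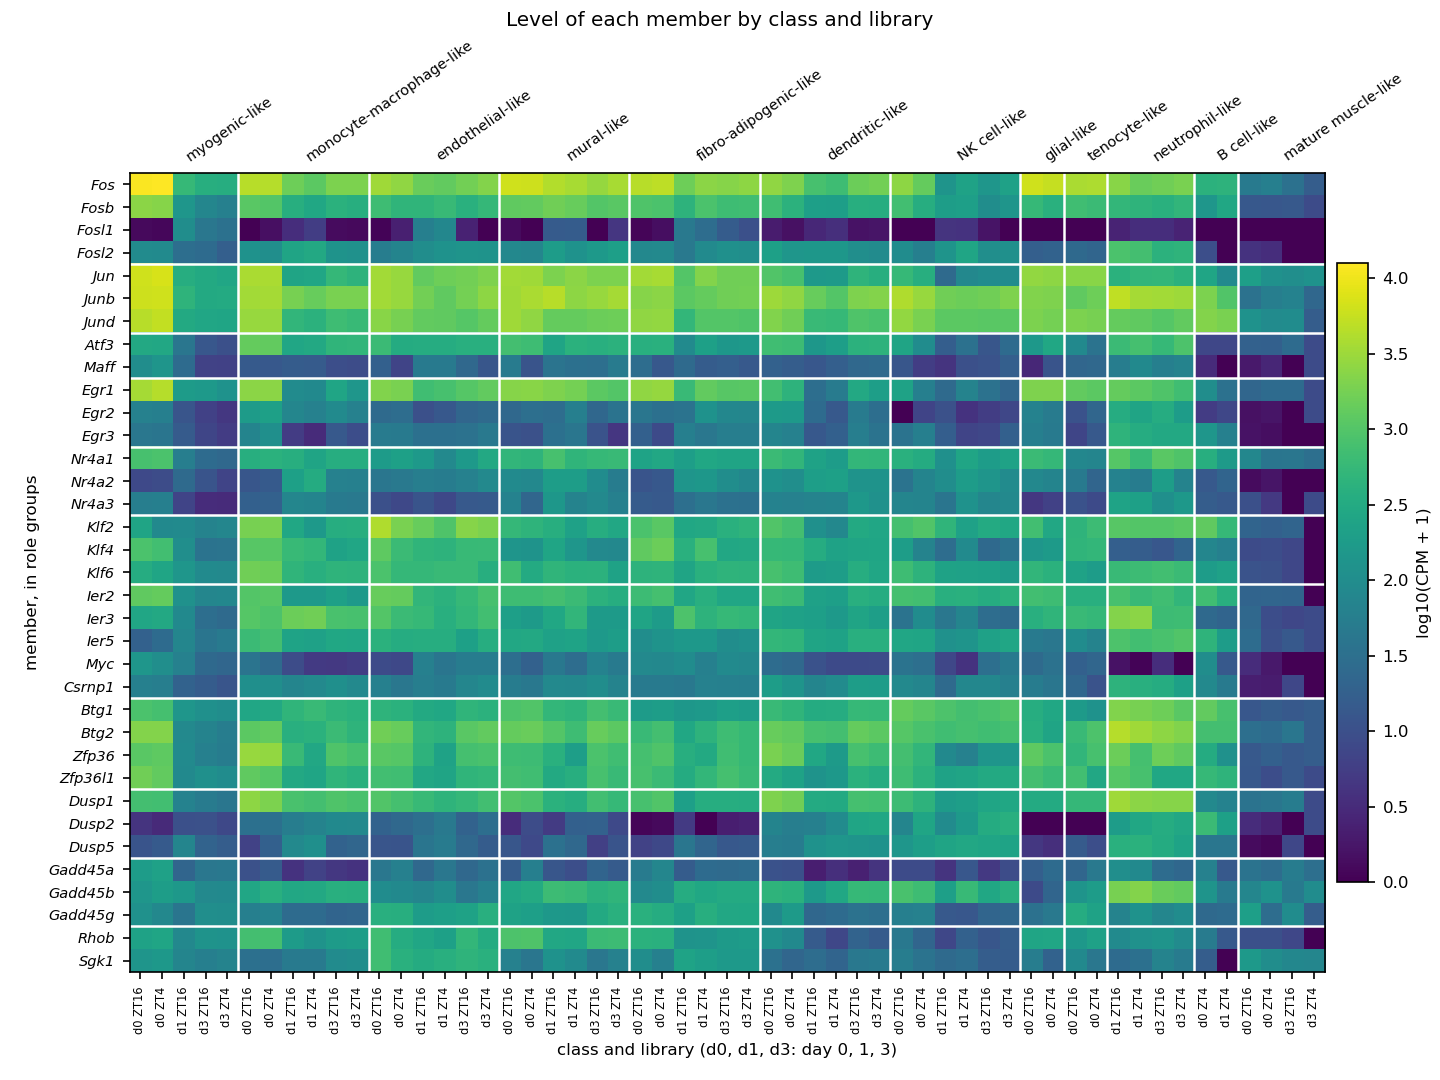
Level of each of the 35 genes as log10(CPM + 1), with genes in rows by role and each class in each library as a column. The rows of Fos, Jun, Junb, Jund and Egr1 are bright across the day 0 columns of most classes, and those of Fosl1, Nr4a2 and Dusp5 are dark on day 0.

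FOS proteins are the AP-1 partners whose own genes are the classic quick responders. Fos had 11997, 568 and 375 CPM on days 0, 1 and 3 at ZT16 and 12683 and 359 CPM on days 0 and 3 at ZT4 in myogenic-like cells. The day 1 over day 0 difference at ZT16 was -4.40 [-4.50 to -4.31] on the log2 scale, and per cell Fos gave 7.93 UMIs on day 1 and 86.4 on day 0. In monocyte-macrophage-like cells Fos had 4644, 1581 and 2002 CPM on days 0, 1 and 3 at ZT16 and 4445, 1154 and 1995 CPM at ZT4, a shallower fall. Mural-like cells held the highest Fos level of any class in each of the 4 libraries of injured muscle, with 6295, 4228 and 2867 CPM on days 0, 1 and 3 at ZT16 and 6122, 3632 and 3659 CPM at ZT4. In NK-like cells Fos had 2517, 131 and 144 CPM on days 0, 1 and 3 at ZT16 and 1378, 232 and 219 CPM at ZT4. The NK markers of that class were higher on the injured days, as given above, and their part in its falls was not tested. Fos fell in 6 of 7 classes on day 1 at ZT16 and in 6 of 7 at ZT4, and rose in none of them. Fosb, a close relative of Fos, had 2412, 143 and 75.1 CPM on days 0, 1 and 3 at ZT16 and 2282 and 59.7 CPM on days 0 and 3 at ZT4 in myogenic-like cells and 1275, 1613 and 1002 CPM on days 0, 1 and 3 at ZT16 and 1288, 1434 and 1124 CPM at ZT4 in mural-like cells. In mural-like cells Fosb was thus above its day 0 level on day 1 in CPM, though by less than 1.5-fold.

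Fosl1, which encodes FRA-1 and is itself an AP-1 target, did the opposite of Fos. It had 0.273, 101 and 41.5 CPM on days 0, 1 and 3 at ZT16 and 0.188 and 33.1 CPM on days 0 and 3 at ZT4 in myogenic-like cells, with 155 UMIs on day 1 and 2 on day 0 at ZT16. The log2 difference was 8.21 [6.65 to 11.59], with wide limits, since day 0 gave so few UMIs. Fibro-adipogenic-like cells had 0.122, 45.4 and 14.5 CPM on days 0, 1 and 3 at ZT16 and 0.400, 28.3 and 8.90 CPM at ZT4, and endothelial-like cells 0.0960, 57.0 and 1.45 CPM on days 0, 1 and 3 at ZT16 and 1.27, 78.1 and 0 CPM at ZT4. On day 0 no class exceeded 1.27 CPM, so the gene was close to undetected in uninjured muscle. In monocyte-macrophage-like cells at ZT16, 129 UMIs on day 1 against 0 on day 0 made it at least 3.97-fold higher, taking 3 UMIs in the day 0 class as the floor. In endothelial-like cells at ZT4 it was at least 22.8-fold lower on day 3, with 0 UMIs, than on day 1, with 105. Fosl2, which encodes FRA-2, reached its highest levels in neutrophil-like cells, between 428 and 858 CPM over 4 libraries. It rose in 3 and fell in 2 of 7 classes on day 1 at ZT16.

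JUN proteins are the other side of AP-1. Jun had 6354, 355 and 306 CPM on days 0, 1 and 3 at ZT16 and 7113 and 271 CPM on days 0 and 3 at ZT4 in myogenic-like cells and 3777, 251 and 547 CPM on days 0, 1 and 3 at ZT16 and 3862, 263 and 441 CPM at ZT4 in monocyte-macrophage-like cells. It fell in 7 of 7 classes on day 1 at ZT16 and in 8 of 8 on day 3 at ZT16. In mural-like cells it still had between 1984 and 2425 CPM on day 1. Junb, which often holds back what Jun does, had 6283, 468 and 315 CPM on days 0, 1 and 3 at ZT16 and 6496 and 317 CPM on days 0 and 3 at ZT4 in myogenic-like cells. Neutrophil-like cells had Junb at 3431 and 3213 CPM on day 3 and 5121 and 3555 CPM on day 1 (ZT16 and ZT4), whereas Jun there lay between 412 and 515 CPM. NK-like cells had Junb at 1615 and 1493 CPM on day 1 and at 4177 and 3000.0 CPM on day 0. Jund fell in 7 of 7 classes on day 1 at ZT16, among them myogenic-like cells with 309.8 CPM on day 1 against 4592 on day 0.

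Of the other bZIP factors, Atf3, a stress-induced repressor, was highest in monocyte-macrophage-like cells on day 0, with 1373, 269.5 and 479 CPM on days 0, 1 and 3 at ZT16 and 1295, 302 and 497 CPM at ZT4. Neutrophil-like cells had 569 and 905 CPM on day 3 and 629 and 784 CPM on day 1. Atf3 fell in 7 of 7 classes on day 1 at ZT16 and in 5 of 6 at ZT4. Maff, a small Maf protein without an activation domain, had 102, 26.7 and 5.54 CPM on days 0, 1 and 3 at ZT16 and 137 and 5.32 CPM on days 0 and 3 at ZT4 in myogenic-like cells, and lay at or under 89.1 CPM in all other classes.

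Egr1, Egr2 and Egr3 encode zinc finger factors that sit right below serum response factor. Egr1 had 3593, 178 and 167 CPM on days 0, 1 and 3 at ZT16 and 4422 and 121 CPM on days 0 and 3 at ZT4 in myogenic-like cells. In monocyte-macrophage-like cells it had 2478, 94.2 and 262 CPM on days 0, 1 and 3 at ZT16 and 2489, 86.7 and 143 CPM at ZT4, so that the log2 differences on day 1 were -4.72 [-4.77 to -4.67] at ZT16 and -4.84 [-4.90 to -4.79] at ZT4. In dendritic-like cells Egr1 had 716, 29.7 and 304 CPM on days 0, 1 and 3 at ZT16 and 441, 50.5 and 199 CPM at ZT4, with part of the level back on day 3. Mural-like cells differed again, with 2276, 2064 and 1187 CPM on days 0, 1 and 3 at ZT16 and 2353, 1786 and 994 CPM at ZT4 and no call on day 1 at either collection time. Neutrophil-like cells had Egr1 at 926 and 688 CPM on day 3 and 1361 and 1167 CPM on day 1. Egr2 and Egr3 were highest in neutrophil-like cells after injury, Egr2 with between 186 and 343 CPM and Egr3 with between 301 and 467 CPM. In monocyte-macrophage-like cells Egr3 had 70.5, 4.37 and 13.2 CPM on days 0, 1 and 3 at ZT16 and 111, 2.19 and 8.22 CPM at ZT4. In fibro-adipogenic-like cells Egr3 went the other way, with 17.1, 58.7 and 55.8 CPM on days 0, 1 and 3 at ZT16 and 7.46, 42.0 and 55.0 CPM at ZT4.

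NR4A genes encode orphan nuclear receptors that act without a known ligand. Nr4a1, well known as a marker of recent receptor signalling in lymphocytes, had 820.1, 56.0 and 26.5 CPM on days 0, 1 and 3 at ZT16 and 868 and 23.2 CPM on days 0 and 3 at ZT4 in myogenic-like cells. In fibro-adipogenic-like cells it stayed between 201 and 286 CPM in all 6 libraries. Neutrophil-like cells had 1118 and 952 CPM on day 3 and 1046 and 596 CPM on day 1. Nr4a2 took another course. It had 11.7, 214 and 61.9 CPM on days 0, 1 and 3 at ZT16 and 13.4, 328 and 59.5 CPM at ZT4 in monocyte-macrophage-like cells, differences on day 1 of 4.18 [3.82 to 4.60] at ZT16 and 4.61 [4.31 to 4.94] at ZT4 on the log2 scale. In fibro-adipogenic-like cells it had 10.6, 138 and 101 CPM on days 0, 1 and 3 at ZT16 and 12.5, 148 and 77.7 CPM at ZT4. Nr4a2 rose in 6 of 7 classes on day 1 at ZT16 and in 5 of 6 at ZT4 and fell in none. Nr4a3 rose in 3 and fell in 2 of 7 classes on day 1 at ZT16. Monocyte-macrophage-like cells had Nr4a3 at 16.9, 75.8 and 48.5 CPM on days 0, 1 and 3 at ZT16 and 17.5, 70.4 and 43.8 CPM at ZT4.

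KLF factors are zinc finger proteins best known from quiescent and barrier-forming cells. Klf2, which shear stress raises in endothelium, was highest in endothelial-like cells in 5 of the 6 libraries, with 4076, 1402 and 2312 CPM on days 0, 1 and 3 at ZT16 and 1885, 928 and 1985 CPM at ZT4. It fell in 6 of 7 classes on day 1 at ZT16 and in 7 of 7 at ZT4. In monocyte-macrophage-like cells it had 1851, 281 and 359 CPM on days 0, 1 and 3 at ZT16 and 1873, 161 and 371 CPM at ZT4. Klf6 had 1616, 475 and 464 CPM on days 0, 1 and 3 at ZT16 and 1493, 382 and 441 CPM at ZT4 in monocyte-macrophage-like cells and 440.3, 246 and 461 CPM on days 0, 1 and 3 at ZT16 and 463, 408 and 450.4 CPM at ZT4 in fibro-adipogenic-like cells, where the later levels were near those of day 0. Klf4 was highest in fibro-adipogenic-like cells on day 0, with 1277 and 1530.4 CPM, and had between 12.1 and 19.8 CPM in neutrophil-like cells.

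Among the other nuclear factors, Ier2 and Ier3 are small induced proteins. Ier2 had 1269.6, 117 and 74.9 CPM on days 0, 1 and 3 at ZT16 and 1357 and 77.2 CPM on days 0 and 3 at ZT4 in myogenic-like cells and fell in 6 of 7 classes on day 1 at each collection time. Ier3, which restrains cell death, took another course. Monocyte-macrophage-like cells had 1063, 1537 and 837 CPM on days 0, 1 and 3 at ZT16 and 912, 1617 and 797 CPM at ZT4, and neutrophil-like cells 661 and 685 CPM on day 3 and 2230.3 and 2418 CPM on day 1. Fibro-adipogenic-like cells had Ier3 at 248, 914 and 566 CPM on days 0, 1 and 3 at ZT16 and 177, 455 and 526 CPM at ZT4. Ier5 was the only gene of this group to rise in myogenic-like cells on day 1, with 17.7, 76.8 and 39.0 CPM on days 0, 1 and 3 at ZT16 and 26.1 and 45.5 CPM on days 0 and 3 at ZT4. Myc, a driver of growth and cell division, had 7.81, 59.3 and 52.1 CPM on days 0, 1 and 3 at ZT16 and 6.87, 38.7 and 52.6 CPM at ZT4 in endothelial-like cells, with log2 differences on day 1 of 2.92 [2.53 to 3.33] at ZT16 and 2.49 [1.92 to 3.07] at ZT4. In monocyte-macrophage-like cells Myc went down instead, with 37.1, 8.02 and 3.85 CPM on days 0, 1 and 3 at ZT16 and 25, 4.07 and 4.59 CPM at ZT4. Csrnp1, a nuclear protein induced by axin, was highest in neutrophil-like cells after injury, between 215 and 445 CPM.

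Zfp36 encodes tristetraprolin, which binds AU-rich elements and destroys cytokine mRNAs. In monocyte-macrophage-like cells it had 2934, 592 and 930.0 CPM on days 0, 1 and 3 at ZT16 and 2769.9, 293 and 767 CPM at ZT4, and in neutrophil-like cells 1596 and 1273 CPM on day 3 and 1498 and 769.8 CPM on day 1. It fell in 7 of 7 classes on day 1 at each collection time. Its relative Zfp36l1 had 1637, 88.5 and 114 CPM on days 0, 1 and 3 at ZT16 and 1304 and 98.1 CPM on days 0 and 3 at ZT4 in myogenic-like cells. Btg2, an antiproliferative partner of the deadenylase complex, showed one of the deepest falls. It had 2197, 84.6 and 67.5 CPM on days 0, 1 and 3 at ZT16 and 2222 and 53.1 CPM on days 0 and 3 at ZT4 in myogenic-like cells, log2 differences on day 3 of -5.02 [-5.11 to -4.94] at ZT16 and -5.39 [-5.46 to -5.31] at ZT4. In neutrophil-like cells it had 2546 and 2099 CPM on day 3 and 4441 and 3324 CPM on day 1, above every other class in those libraries. Btg1 was likewise highest in neutrophil-like cells on the injured days, with between 1123 and 2107 CPM, and had 870.0, 144 and 113 CPM on days 0, 1 and 3 at ZT16 and 788 and 102 CPM on days 0 and 3 at ZT4 in myogenic-like cells.

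Dusp1 encodes a nuclear phosphatase that switches off the p38 and JNK kinases. It had 2501, 849 and 949 CPM on days 0, 1 and 3 at ZT16 and 1989.8, 751 and 828 CPM at ZT4 in monocyte-macrophage-like cells and 752, 65.1 and 50.9 CPM on days 0, 1 and 3 at ZT16 and 719 and 39.5 CPM on days 0 and 3 at ZT4 in myogenic-like cells. Neutrophil-like cells had 2243 and 2252 CPM on day 3 and 3283 and 2492 CPM on day 1. Dusp2, a phosphatase of activated immune cells, was 0 in glial-like and tenocyte-like cells on day 0 and highest in B cell-like cells at ZT4, with 634 CPM. Dendritic-like cells had Dusp2 at 70.8, 61.4 and 256 CPM on days 0, 1 and 3 at ZT16 and 56.8, 96.1 and 279.6 CPM at ZT4. Dusp5, a nuclear phosphatase that acts on ERK, rose in 7 of 7 classes on day 1 at ZT16 and in 4 of 5 at ZT4. It had 5.42, 83.0 and 18.5 CPM on days 0, 1 and 3 at ZT16 and 17.4, 112 and 21.4 CPM at ZT4 in monocyte-macrophage-like cells and 10.5, 73.5 and 18.9 CPM on days 0, 1 and 3 at ZT16 and 13.5 and 15.3 CPM on days 0 and 3 at ZT4 in myogenic-like cells. The CArG boxes shown for Dusp5 and Zfp36 thus stand before a gene that rose and a gene that fell.

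GADD45 proteins are small stress sensors that bind kinases and cell cycle proteins. Gadd45b was highest in neutrophil-like cells, with 1443 and 1328 CPM on day 3 and 1828 and 2176 CPM on day 1, and in fibro-adipogenic-like cells it had 84.3, 352 and 322 CPM on days 0, 1 and 3 at ZT16 and 100.4, 280.2 and 323 CPM at ZT4. Gadd45g had 399.9, 217 and 283 CPM on days 0, 1 and 3 at ZT16 and 345, 372 and 274 CPM at ZT4 in fibro-adipogenic-like cells and 118, 38.4 and 105 CPM on days 0, 1 and 3 at ZT16 and 79.8 and 101 CPM on days 0 and 3 at ZT4 in myogenic-like cells, where the day 3 levels were near those of day 0. Gadd45a had 187, 20.8 and 41.2 CPM on days 0, 1 and 3 at ZT16 and 224 and 42.3 CPM on days 0 and 3 at ZT4 in myogenic-like cells. Rhob, an induced small GTPase, had 918, 286 and 617 CPM on days 0, 1 and 3 at ZT16 and 923, 265 and 641 CPM at ZT4 in mural-like cells and fell in 6 of 6 classes on day 1 at ZT16. Sgk1, a kinase induced by serum and by glucocorticoids, had 689, 329.9 and 459.9 CPM on days 0, 1 and 3 at ZT16 and 397, 389.7 and 404 CPM at ZT4 in endothelial-like cells and 102, 235 and 164 CPM on days 0, 1 and 3 at ZT16 and 60.8, 199.9 and 160.4 CPM at ZT4 in fibro-adipogenic-like cells.

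**Figure D4:**
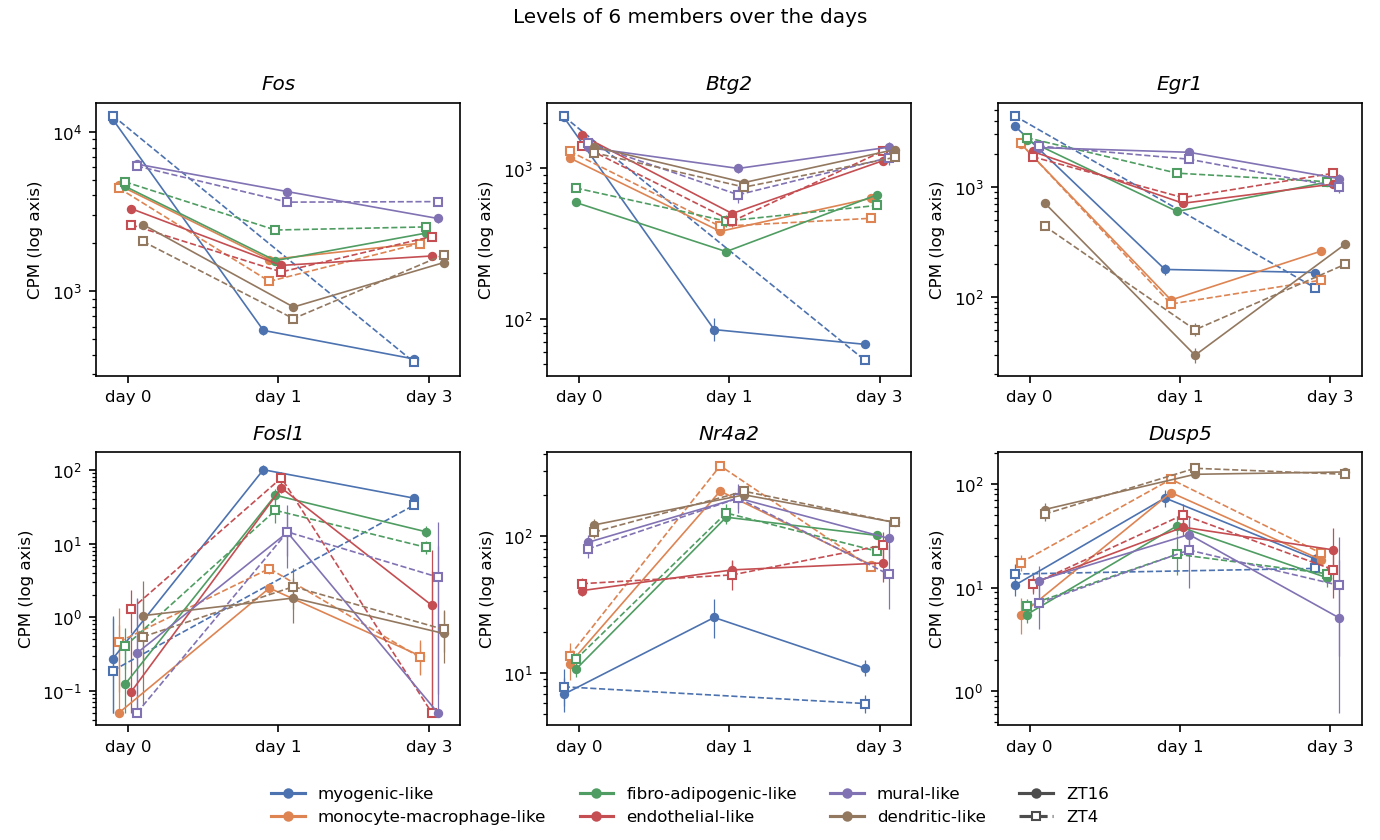
Levels (CPM, log axis) of Fos, Btg2, Egr1, Fosl1, Nr4a2 and Dusp5 over days 0, 1 and 3 in 6 classes, with filled circles and solid lines for ZT16, open squares and dashed lines for ZT4, and 95% counting limits as bars. A level of 0 is drawn near the lower edge; Fos, Btg2 and Egr1 fall in myogenic-like cells after day 0, and Fosl1, Nr4a2 and Dusp5 are higher on day 1.

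Taken by gene, the courses fell into a few kinds. At ZT16, Fos, Jun, Jund, Egr1, Atf3, Klf2, Dusp1 and Rhob had their highest level on day 0 in 7 of the 7 classes with all 3 days. Fosl1, Nr4a2, Dusp2 and Dusp5 had it on day 0 in none of the classes in which they were measured. Myogenic-like cells had the highest level on day 0 for 29 of 35 genes, on day 1 for 5 and on day 3 for 1. Endothelial-like cells had it on day 0 for 25 of 35 genes at ZT16 and for 15 at ZT4, and mural-like cells for 12 of 33 and 15 of 32. The shares over all genes are not given here, so these counts describe the 35 genes and do not set them apart from others.

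Some classes were made of other clusters on other days. Myogenic-like cells came from cluster 12 on day 0 (965 of 1018 cells at ZT16), mostly from cluster 27 on day 1 (72 of 110 cells, and 36 in cluster 19) and from clusters 19 and 27 on day 3, cluster 19 being led by genes that include Myog and Mymk, of cells about to fuse. Cluster 27 rested on 3 of the myogenic markers and was led by genes that include the sarcomere genes Myl4, Tnnc1 and Tnni1 and the fusion gene Mymx. Its median mitochondrial share was 1.95% on day 1 and 0.0736% on day 3 at ZT16, against 4.50% in cluster 12 on day 0, and its 35-gene sum was 2039 CPM on day 1. Cluster 12 was led by genes that include Chrdl2 and Calcr, the second known from quiescent stem cells. Monocyte-macrophage-like cells came mainly from cluster 16 on day 0, led by Lyve1 and Timd4 of resident macrophages, from clusters 6 and 9 among others on day 1, and from clusters 2, 5 and 8 on day 3. Fibro-adipogenic-like cells came from clusters 3 and 13 on day 0 and mostly from cluster 21 later. In these 3 classes, and in the NK-like class with its moving mixture, the falls cannot be told apart from a change in which cells are present. Of the dendritic-like cells, 2 of 368 on day 1 and 101 of 210 on day 0 lay in cluster 29 at ZT16, and 3 of 392 on day 1 and 141 of 253 on day 0 at ZT4. Cluster 29 was led by genes that include Retnla, Lyz1 and Ear2, also known from macrophages, and its sums were 23539.6 and 17972 CPM on day 0 (ZT16 and ZT4). Dendritic-like cluster 7 spanned all days, and in it alone 26 of 33 genes were lower and 1 higher on day 1 at ZT16 (22.2% and 22.7% of all genes there), with sums of 7812 CPM on day 1 and 24760.5 CPM on day 0. At ZT4, 26 of 33 were lower in it, beside 20.3% of all genes. The mural-like and NK-like classes were 1 cluster each on every day, though the content of the NK-like one moved. Endothelial-like cluster 1 behaved otherwise. It kept 33113 CPM on day 1 at ZT16 (67 cells), against 35165 CPM on day 0 (2166 cells), with 5 genes higher and 6 lower of 34 (19.5% and 18.5% of all genes there). On day 3 cluster 1 had 22742 CPM at ZT16 and 27723 CPM at ZT4, against 35165 and 26085 CPM on day 0. Most endothelial-like cells of day 1 lay in cluster 26, led by Apln and Angpt2 of sprouting vessels, and in the shallow cluster 11. The sum over cluster 26 at ZT16 was 13237 CPM. Cluster 11 fell within itself, with 6098 CPM on day 1 and 11584 CPM on day 0 at ZT16. There 14 of 27 genes were lower and 3 higher (28.8% and 22.6% of all genes). At ZT4 it had 5443 and 10391 CPM, with 15 of 25 genes lower and 2 higher (31.0% and 23.5%). For the endothelial-like class as a whole, the day 1 fall cannot be told apart from a change in which cells are present either.

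Between day 1 and day 3 the genes came back in some classes. On day 3 against day 1, 76 of 262 pairs were higher and 59 lower at ZT16, beside 27.5% and 16.4% over all genes, and 69 of 227 were higher and 44 lower at ZT4, beside 25.7% and 19.3%. Dendritic-like cells stood out. They had 25 of 33 genes higher and 1 lower at ZT16 (medians 0.92 and, for all genes, 0.06, with 22.1% higher and 14.2% lower), and 25 of 34 higher and 2 lower at ZT4 (17.3% and 19.2% of all genes). Cluster 7 alone gave 25 of 33 genes higher at ZT16 and 26 of 34 at ZT4, beside 23.2% and 18.5% of all genes there. In dendritic-like cells Egr1 had 304 CPM on day 3 at ZT16, against 29.7 on day 1, a log2 difference of 3.35 [3.12 to 3.60]. Zfp36 rose in 6 of 8 classes at ZT16 and in 7 of 7 at ZT4, with 837 CPM on day 3 and 228 on day 1 in endothelial-like cells at ZT4. Dusp5 fell in 4 of 7 classes at ZT16 and in 4 of 6 at ZT4, and Fosl1 in 4 of 4 and 3 of 3.

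Neutrophil-like cells had 7 genes lower and 3 higher on day 3 at ZT16 (medians -0.32 and, for all genes, 0.56, with 9.05% lower and 48.6% higher). Ier3 there fell by 1.75 and by 1.82 on the log2 scale at ZT16 and ZT4, and Zfp36l1 fell by 1.88 and by 1.57. Zfp36l1 had 282 and 277 CPM on day 3, against 1044 and 825 CPM on day 1. Myogenic-like cells went on falling at ZT16, with 19 genes lower and 3 higher of 35 and a median of -0.63 (18.9% of all genes lower and 23.1% higher). That median turned to 0.41 with cells thinned to 1000 UMIs and to 0.09 with a mean over cells, so its direction was not stable over these settings.

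Fewer of the 35 genes differed between collection times than between days. On day 0, ZT16 against ZT4, 47 of 313 pairs were higher and 14 lower over 10 classes, beside 7.4% and 7.68% over all genes. A log2 difference above 0 was found for 200 of the 313 pairs. Its share over all genes is not given here, so this count is not read as a trait of the 35 genes. Endothelial-like cells had 8 of 34 genes higher and 0 lower (medians 0.20 and, for all genes, -0.13, with 4.52% higher and 12.7% lower), and myogenic-like cells 1 gene of 34 higher (6.97% of all genes). Klf2 in endothelial-like cells had 4076 CPM at ZT16 and 1885 CPM at ZT4, a log2 difference of 1.11 [1.09 to 1.14], and was that one gene in myogenic-like cells, with 245 and 87.5 CPM. It did not move alike everywhere. Fibro-adipogenic-like cells had Klf2 at 867 and 1118 CPM and monocyte-macrophage-like cells at 1851 and 1873 CPM (ZT16 and ZT4). Klf4 in endothelial-like cells had 1229 and 623 CPM, a log2 difference of 0.98 [0.93 to 1.03]. Within endothelial-like cluster 1 alone, 8 of 34 genes were higher and 0 lower, beside 4.14% and 13.4% of all genes there.

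Sgk1 was the gene most often higher at ZT16 on day 0, in 7 of the 10 classes in which it was measured, and it was lower in none. It had 689 and 397 CPM in endothelial-like, 102 and 60.8 CPM in fibro-adipogenic-like and 165 and 101 CPM in mature muscle-like cells (ZT16 and ZT4). Myogenic-like cells were an exception, with 137 and 151 CPM. Zfp36l1 was above 0 on the log2 scale in 10 of 10 classes and past the threshold in 3. In mature muscle-like cells 9 of 27 genes were higher and 2 lower (8.09% and 4.7% of all genes), led by Gadd45g with 203 CPM at ZT16 and 28.5 CPM at ZT4, a log2 difference of 2.83 [2.62 to 3.05]. Dendritic-like cells had a log2 difference above 0 for 33 of 34 genes, with a median of 0.27, against 0.01 for all genes. Of the 34 genes, 2 were past the threshold, near the 5.24% of all genes.

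On day 1 the direction differed between classes. Over 7 classes, 29 of 228 pairs were higher at ZT16 and 40 lower, beside 8.16% and 12.5% over all genes. Fibro-adipogenic-like cells supplied 15 of the 40 and NK-like cells 12, where 25.7% and 16.5% of all genes were lower. Those classes were small, with 93 and 53 fibro-adipogenic-like cells and 76 and 80 NK-like cells at ZT16 and ZT4. The summed fibro-adipogenic markers there were 10728 and 27865 CPM, and in NK-like cells the T cell markers were 5602 and 3218 CPM and the NK markers 2573 and 4548 CPM. The part of cell content in these differences was not tested. Zfp36 was above 0 in 7 of 7 classes and past the threshold in 5. In monocyte-macrophage-like cells it had 592 CPM at ZT16 and 293 CPM at ZT4, a log2 difference of 1.02 [0.98 to 1.05], and in neutrophil-like cells 1498 and 769.8 CPM, a difference of 0.96 [0.92 to 1.00]. Nr4a1 had 1046 and 596 CPM in neutrophil-like and 164 and 84.8 CPM in endothelial-like cells. Mural-like cells of day 1 held neutrophil markers at 82.2 CPM at ZT16 and 4061 CPM at ZT4, and their part in the mural-like values was not tested.

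On day 3, 17 of 261 pairs were higher at ZT16 and 11 lower over 9 classes, beside 7.04% and 5.46% over all genes, so the 35 genes did not stand apart from the rest. Egr1 in monocyte-macrophage-like cells had 262 CPM at ZT16 and 143 CPM at ZT4, a log2 difference of 0.88 [0.84 to 0.92]. Nr4a1 in endothelial-like cells had 158 CPM at ZT16 and 297 CPM at ZT4, a log2 difference of -0.91 [-1.25 to -0.59], opposite in sign to day 1. Endothelial-like cells had 4 genes lower and 2 higher of 31 (10.9% and 8.55% of all genes), with 24 of the 31 below 0 and medians of -0.325 and, for all genes, -0.066. The order of ZT16 and ZT4 in this class was thus the reverse of day 0 for the sum, 18147 and 21105 CPM on day 3 against 32171 and 24547 CPM on day 0 (ZT16 and ZT4). With 1 library at each time and day, collection time cannot be told apart from what else differed between libraries.

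**Figure D5:**
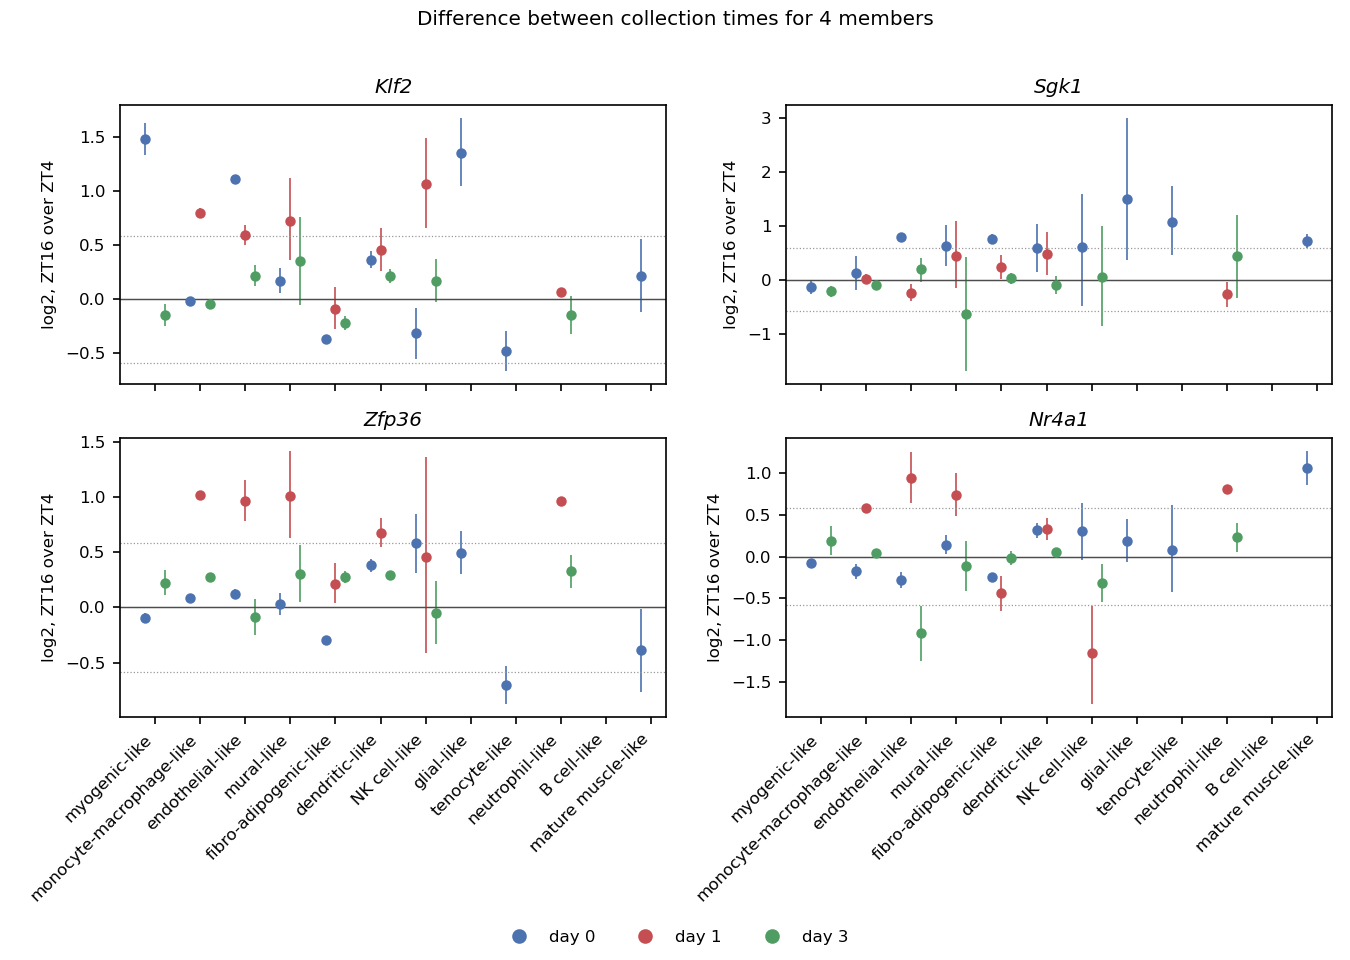
Log2 of the level at ZT16 over that at ZT4 for Klf2, Sgk1, Zfp36 and Nr4a1 by class, one colour per day, with 95% counting limits, a solid line at 0 and dotted lines at 1.5-fold. Klf2 in endothelial-like cells lies at 1.11 on day 0, and the Zfp36 points of day 1 lie above 0 in 7 of 7 classes.

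The genes also differed in which of the others they went with. Over the 55 points of a class in a library, which share libraries and depth, the rank correlation of levels was 0.95 between Jun and Egr1, 0.92 between Fos and Jun and 0.91 between Atf3 and Dusp1. Nr4a3 was nearest to Gadd45b, at 0.85, and Dusp2 to Dusp5, at 0.80. Fosl1 had no close neighbour, its highest value being 0.43 with Dusp5. Dusp2 and Jun had the value -0.52, and Nr4a2 and Gadd45a -0.63. These are descriptions of where levels were high, over points that are not independent.

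Genes outside the 35, grouped by their part in the same pathway or in stress, gave a mixed picture, counted as pairs of a gene and a class. The 13 MAP kinase feedback and stress genes (such as Dusp6, Spry2 and Ppp1r15a) were lower in 41 of 75 (54.7%) at ZT16 and 29 of 66 (43.9%) at ZT4 on day 1 against day 0, beside 34.1% and 29.1% of all genes, and on day 3 in 43 of 83 (51.8%) at ZT16 and 41 of 81 (50.6%) at ZT4, beside 25.1% and 26.2%. The 14 heat shock genes were lower in 45 of 95 (47.4%) at ZT16 and 36 of 90 (40%) at ZT4 on day 1 against day 0, beside 34.1% and 29.1% of all genes, and on day 3 in 47 of 110 (42.7%) at ZT16 and 42 of 109 (38.5%) at ZT4, beside 25.1% and 26.2%, and so their shares of lower pairs too were above those of all genes. The upstream factors (10 genes, among them Srf, Elk1 and Creb1) were higher in 14 of 64 (21.9%) and lower in 20 of 64 (31.2%) on day 1 at ZT16, near the shares of all genes, but higher in 17 of 57 (29.8%) at ZT4 and in 7 of 70 (10.0%) on day 3 at ZT4, beside 20.2% and 18.6% of all genes. On day 3 against day 1 at ZT4 they were lower in 23 of 56 (41.1%), beside 19.3% of all genes. Early NF-kB targets (11 genes) were higher in 20 of 69 (29.0%) and lower in 27 of 69 (39.1%) on day 1 at ZT16, beside 19.8% and 34.1% of all genes. At ZT4 they were higher in 21 of 62 (33.9%) and lower in 16 of 62 (25.8%), beside 20.2% and 29.1%. Between collection times, heat shock genes were higher at ZT16 than at ZT4 in 28 of 137 (20.4%) on day 0, 20 of 90 (22.2%) on day 1 and 14 of 106 (13.2%) on day 3, beside 7.4%, 8.16% and 7.04% of all genes. Their median lay above that of all genes in 8 of 10 classes on day 0, 7 of 7 on day 1 and 9 of 9 on day 3.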

How the data were processed

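Single cells of tibialis anterior muscle were captured with 10x 3′ chemistry, 1 library per group. The authors deposited 1 matrix of raw UMI counts per library; per the file headers Cell Ranger 6.1.2 wrote them. The version in the submitters' processing notes is 1.0.0, and the genome mm10. The sources used here do not give the annotation release, and no column went unmapped (0). The counts are not normalized, and nothing upstream of them was repeated.

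Kept barcodes had 200 or more genes, 500 or more UMIs and no more than 10% of UMIs from mitochondria, and the highest doublet scores were left out at 0.8% per 1000 barcodes, scored against 2 simulated doublets per cell. Cells were clustered on 2000 variable genes without the 35 genes (30 components, 15 neighbours, Leiden resolution 1.0; unnamed clusters of at least 100 cells divided once at 0.5). A cluster took a class name with at least 3 fixed markers 2-fold up and in 10% of its cells, unless its leading genes or a low UMI count went against it, so differences from the study may come from rebuilt names. UMIs were summed per class and library (at least 50 cells). Log2 differences had 0.5 UMI added, with exact conditional binomial 95% limits, and levels exact Poisson limits. A difference counted at 1.5-fold with 30 UMIs together; 9 comparisons were made, with no tests, since 1 library stood for each group. The contrast code was tested on simulated data.

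Genes given in full are the top members of each of 11 role groups by mean level, and otherwise up to 3 genes per class and comparison furthest from 0; other values named were chosen after they were seen. The genes and lists were chosen with earlier results of these data known. Alternatives changed the filters, doublets, depth, free RNA, clustering, scaling and minimum counts. Python 3.11.15, numpy 2.4.6, scipy 1.17.1, pandas 2.3.3, leidenalg 0.10.2, igraph 0.11.9 and matplotlib 3.10.9 were used.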

Additional observations from a re-analysis of the deposited data

How the results depend on the processing

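The counts of pairs were recomputed under 14 other settings, 252 values in all, of which 228 stayed within 1.5 times the count given and 24 did not. Falls after injury held their count except for day 1 over day 0 at ZT4, where 120 lower pairs became 79 with a mitochondrial limit of 5%. The counts of collection time moved most. At ZT16 over ZT4 on day 0, the 14 lower pairs became 27 with doublets kept and 27 with no limit on UMIs. On day 1 the 29 higher pairs became 16 with a mitochondrial limit of 5% and 47 with each library clustered alone, and the 40 lower pairs became 20 with that limit, 15 with cells thinned and 26 with the 35 genes among the clustering genes. On day 3 the 17 higher pairs became 36 with doublets kept, 31 with each library clustered alone and 41 with no limit on UMIs, and the 11 lower became 35 with each library clustered alone, 23 with a mean over cells, 22 with no limit on UMIs and 5 with a minimum of 100 UMIs. Higher pairs on day 1 over day 0 became 74 of 42 at ZT16 with doublets kept, and 21 (mitochondrial limit) and 24 (thinned) of 42 at ZT4, and on day 3 over day 0 at ZT4 61 of 36 with each library clustered alone. Lower pairs on day 3 over day 1 became 95 with doublets kept, 30 with cells thinned and 38 without clusters 11 and 27, a setting chosen after seeing the data, of 59 at ZT16, and 83 with doublets kept and 28 thinned of 44 at ZT4. Some settings also changed how many pairs could be counted. With a mitochondrial limit of 5%, 57 of the 71 medians could be computed, and with cells thinned 121 of the 203 named differences. The counts above are not set against the new totals of pairs, so a move need not be a call that failed. The cause of these moves was not tested further.

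With each library clustered alone, the sign of the log2 difference turned for Atf3, NK cell-like, ZT16 over ZT4, day 3 (1.01), for Dusp5, monocyte-macrophage-like, ZT16 over ZT4, day 0 (0.25) and for Egr1, dendritic-like, ZT16 over ZT4, day 0 (-0.034). In the 50 mature muscle-like cells of day 3 at ZT4 it turned with that setting for Ier2, mature muscle-like, day 3 over day 0, ZT4 (1.30, also 0.41 with the 35 genes among the clustering genes and 0.40 at resolution 0.5), Jund, mature muscle-like, day 3 over day 0, ZT4 (1.72) and Klf2, mature muscle-like, day 3 over day 0, ZT4 (2.60). Nr4a3, mature muscle-like, day 3 over day 0, ZT16 turned to 1.32 with doublets kept. The median log2 of members, myogenic-like, day 3 over day 1, ZT16 turned to 0.41 thinned and to 0.094 as a mean over cells. Of the summed levels of a class in a library, 52 of 55 stayed within 1.5-fold with doublets kept, 51 of 52 with each library clustered alone and 52 of 53 with cells thinned to 1000 UMIs, and under the other settings run every sum that could be computed did. The moves were mostly of mature muscle-like cells, by up to 4.16 times with doublets kept (day 0 at ZT4) and 4.43 times with each library clustered alone (day 3 at ZT4). With cells thinned, the sum of myogenic-like cells on day 3 at ZT4 was 1.52 times the value given. Without clusters 11 and 27 the day 1 value of myogenic-like cells is lost, and 69 medians remain of 71. No paired analysis was possible because each group was 1 library and the labels give no replicate numbers. An additive fit of day and collection time over the 6 libraries was not run. Counting limits say nothing of the spread between mice, and classes near 50 cells limit what can be seen for scarce genes.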
